A study of Mus musculus with 6 samples.

Results

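The imprinted snoRNA rows of mouse hippocampus were taken as all rows of 60 to 150 bases, other than miRNA and tRNA rows, that start between 59200000 and 60200000 on chromosome 7 or between 109600000 and 109670000 on chromosome 12 (GRCm38). This gave 223 rows of the 109108 in the table. They comprised 137 Snord115 rows, 71 Snord116 rows, 1 Snord64 row and 1 Snord107 row on chromosome 7, and 13 rows inside the long noncoding RNA gene Rian on chromosome 12. In GENCODE M21, an annotation of the mouse genome, 222 of the 223 are annotated snoRNAs. The remaining row, SNORD112.1, had no exact match there. The 5 other short rows in the regions, all with 0 counts, carry tRNA annotation names and were left out.

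The 6 libraries held small RNA of hippocampus. All mice were 3-month-old C57BL/6 males with floxed Dicer1 alleles (Dicer1 flox/flox), and all received tamoxifen 3 weeks before tissue was taken. WT mice had no recombinase transgene, while Dicer1-ifKO mice carried CaMKIIa-creERT2, a tamoxifen-dependent Cre recombinase made in excitatory neurons of the forebrain. Other cells of the tissue, such as glia and vessels, keep Dicer1 by design. Each library pooled equal amounts of RNA from 3 mice, with 3 libraries per genotype, and p-values here rest on the spread between those pools. These pools add up to 9 mice per genotype, while the design text of the series speaks of 12. Dicer1 encodes the ribonuclease that releases miRNAs from their hairpins.

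C/D box snoRNAs are short RNAs cut from introns and bound by fibrillarin, Nop56, Nop58 and Snu13 at a C box and a D box. Most of them guide methylation of ribosomal RNA, but those of the imprinted arrays are called orphans because no ribosomal target is known for most of them. Snord64, Snord107, Snord116 and Snord115 lie in introns of a long transcript read from the paternal chromosome in neurons across the Prader-Willi region, and loss of SNORD116 in people is linked to Prader-Willi syndrome. The Rian snoRNAs belong to the Dlk1-Dio3 imprinted region and are read from the maternal chromosome. Snord115 carries an antisense element for the serotonin receptor 2C pre-mRNA (Htr2c).

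The sequences that the levels below turn on came from GENCODE M21 and are shown 5′ to 3′ in DNA letters. Capitals mark the C box (TGATGA, searched in the first 20 bases of the given strand) and the D box (CTGA, the last match in the final 20 bases). In Snord115 the capitals before the D box also mark the stretch complementary to Htr2c. The first 3 are the most common Snord115 sequence, of 33 rows, then the sequence of 23 rows that differ from it by G31C alone and that of 6 rows that differ by C14A and G35A alone. The next 3 are the most common Snord116 sequence, of 30 rows, then the sequence of 3 rows that differ from it by C16G alone and that of 3 rows that differ by T11C alone. A few other rows carry these changes together with more. Each substitution gives the base of the most common sequence, the position counted from 1 at the 5′ end of the annotated snoRNA, and the base of the copy.
Snord115 most common: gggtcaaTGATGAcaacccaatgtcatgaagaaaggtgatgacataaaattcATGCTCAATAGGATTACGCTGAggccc
Snord115 G31C: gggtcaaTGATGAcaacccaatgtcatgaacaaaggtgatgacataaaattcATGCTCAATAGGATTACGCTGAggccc
Snord115 C14A G35A: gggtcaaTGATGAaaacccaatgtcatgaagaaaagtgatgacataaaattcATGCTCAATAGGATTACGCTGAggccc
Snord116 most common: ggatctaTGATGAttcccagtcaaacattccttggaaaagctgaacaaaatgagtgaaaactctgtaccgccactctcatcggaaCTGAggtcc
Snord116 C16G: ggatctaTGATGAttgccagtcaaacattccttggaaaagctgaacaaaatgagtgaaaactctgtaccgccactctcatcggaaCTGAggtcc
Snord116 T11C: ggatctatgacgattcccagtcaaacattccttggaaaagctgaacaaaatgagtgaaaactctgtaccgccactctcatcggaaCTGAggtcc

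The single-copy genes upstream of the arrays, and examples of a Rian snoRNA at a high level and of one at a very low level, are shown in the same way.
Snord64: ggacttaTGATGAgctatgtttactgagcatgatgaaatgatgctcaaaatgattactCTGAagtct
Snord107: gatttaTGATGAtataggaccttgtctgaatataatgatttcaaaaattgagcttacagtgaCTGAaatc
AF357425: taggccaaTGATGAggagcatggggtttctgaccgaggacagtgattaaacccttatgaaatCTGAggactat
SNORD113.4: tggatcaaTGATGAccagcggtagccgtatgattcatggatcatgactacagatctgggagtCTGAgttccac
Both boxes were found in 122 of 137 Snord115 rows, 67 of 71 Snord116 rows and 7 of 13 Rian rows, and in Snord64 and Snord107. Over the members with a sequence the share was 89.2% of 222, and over the other annotated snoRNA rows of 60 to 150 bases, which include H/ACA snoRNAs, it was 8.45% of 1231.

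The antisense element of Snord115 was measured by its longest exact complement in the 7 annotated Htr2c transcripts. The stretch ATGCTCAATAGGATTACG (18 bases, positions 53 to 70 of the most common sequence) was intact in 105 of 137 Snord115 rows, and its complement was present in 2 of the Htr2c transcripts. Rows with the intact element held 81.6% of all Snord115 counts. Among the 32 rows without it, the mean level ran from 0.781 to 135 counts-per-million (CPM, defined with the levels below), and the row at the top of that range, AC169674.23, differed inside the element by C58T. The median was 26.4 CPM without the element and 31.6 CPM with it. No other member reached a complement over 13 bases.

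Together the 223 rows held 4045829 counts in the 6 libraries, from 586138 to 792352 per library. Levels are given in counts-per-million (CPM) of the summed feature counts of a library, with repeated rows counted once, after TMM scaling. Triplets of values are in the order of the replicate numbers 1, 2 and 3. Summed Snord115 was 5617, 5993 and 5729.9 CPM across the WT libraries and 5921, 6281 and 5967 CPM across the Dicer1-ifKO libraries. Its lowest library was a WT library and its highest a Dicer1-ifKO library, but the genotypes overlapped. Summed Snord116 was 5688, 6525 and 5814 CPM across the WT libraries and 5698, 5993 and 4391 CPM across the Dicer1-ifKO libraries. Dicer1-ifKO replicate 3 stood below the other 5 libraries, which lay within 5688 to 6525 CPM.

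The 13 Rian rows summed to 2199, 2797 and 2329 CPM across the WT libraries and 2290.0, 2431 and 2296 CPM across the Dicer1-ifKO libraries. WT replicate 2 was the highest, and the 3 Dicer1-ifKO libraries lay inside the range of the WT libraries. Snord64, a single-copy snoRNA upstream of both arrays (chromosome 7, 59978808 to 59978874, minus strand), was at 121, 128 and 139 CPM across the WT libraries and 163, 122 and 138 CPM across the Dicer1-ifKO libraries. Snord107 (59980876 to 59980945, minus strand), named here after its values were seen because it is the remaining member of the region, was at 34.99, 45.5 and 39.99 CPM across the WT libraries and 40.6, 46.5 and 38.1 CPM across the Dicer1-ifKO libraries. Both genes overlapped between genotypes.

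**Figure D1:**
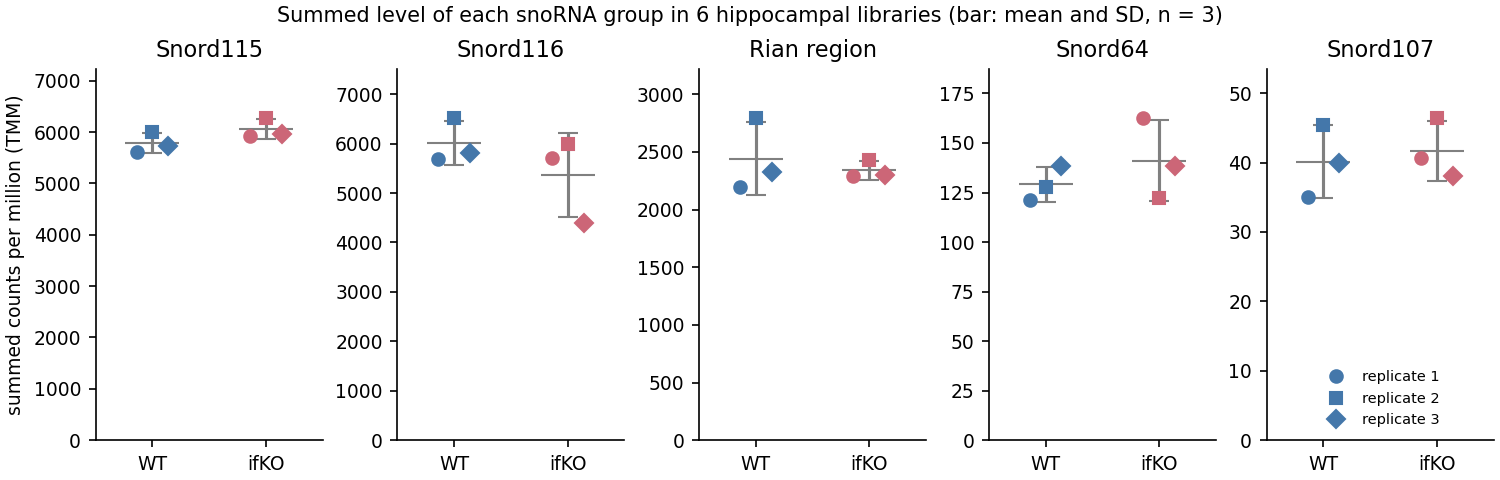
Summed level of each snoRNA group (y axis, CPM after TMM scaling, from 0) in WT and Dicer1-ifKO (ifKO) libraries, with a marker per replicate and the mean and SD of 3 libraries as grey bars. Replicate 3 of Dicer1-ifKO is at 4391 CPM for Snord116, below the other 5 libraries.

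Divided by copy number and length, the groups fell in another order. Per copy and kilobase, the mean over the 6 libraries was 2513 CPM for the Rian rows, 2016 CPM for Snord64, 853 CPM for Snord116, 585 CPM for Snord107 and 548 CPM for Snord115. Snord64 was thus above Snord107, its neighbour in the same transcript, in all 6 libraries. The Rian value is a mean over 13 rows of very unlike level, of which 5 held 0 counts and the median row was at 0.191 CPM. Whether counts scale with length was not tested.

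Copies with an identical sequence could not be told apart by their reads, while 40 Snord115 rows and 21 Snord116 rows had a sequence of their own. Among rows with an identical sequence, counts were nearly equal: in 7 of 7 repeated Snord116 sequences and 16 of 17 repeated Snord115 sequences the lowest row had at least 90% of the counts of the highest. The 30 rows of the most common Snord116 sequence each held 24437 to 25098 counts over the 6 libraries. The exception was the most common Snord115 sequence, where 1 row, AC169674.37, was at 48.5 CPM and the other 32 rows at 32.3 CPM or less. At most 57 distinct Snord115 sequences and 28 distinct Snord116 sequences could be compared. Rows of different sequence may also share reads over a stretch that they have in common. How reads that align to several copies were counted is not known here, so rows that share a sequence are not taken as replicates.

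Snord115 counts were concentrated in 3 sequences. The G31C sequence had 23 rows of 71.6 to 73.3 CPM each, 2.26 times the mean of the most common sequence, and made up 27.2% to 29.3% of Snord115 counts in each library. The most common sequence, with 33 rows at a mean of 32.0 CPM, made up 17.4% to 18.6%. The C14A G35A sequence had the highest level per row of the repeated sequences, 131 to 134 CPM in 6 rows, and made up 13.1% to 13.8%. Each share covers the libraries of both genotypes.

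The sequences were grouped along the array, which is read on the minus strand from the Snord64 side. Counted in that order, the G31C rows lay between copies 10 and 66 of Snord115 and the C14A G35A rows between copies 88 and 99. The most common sequence was scattered from copy 2 to copy 112. In Snord116 the C16G rows lay between copies 37 and 41, and the T11C rows were copies 54 to 56. The first Snord116 copy, SNORD116.1, held 1 to 5 counts per library.

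**Figure D2:**
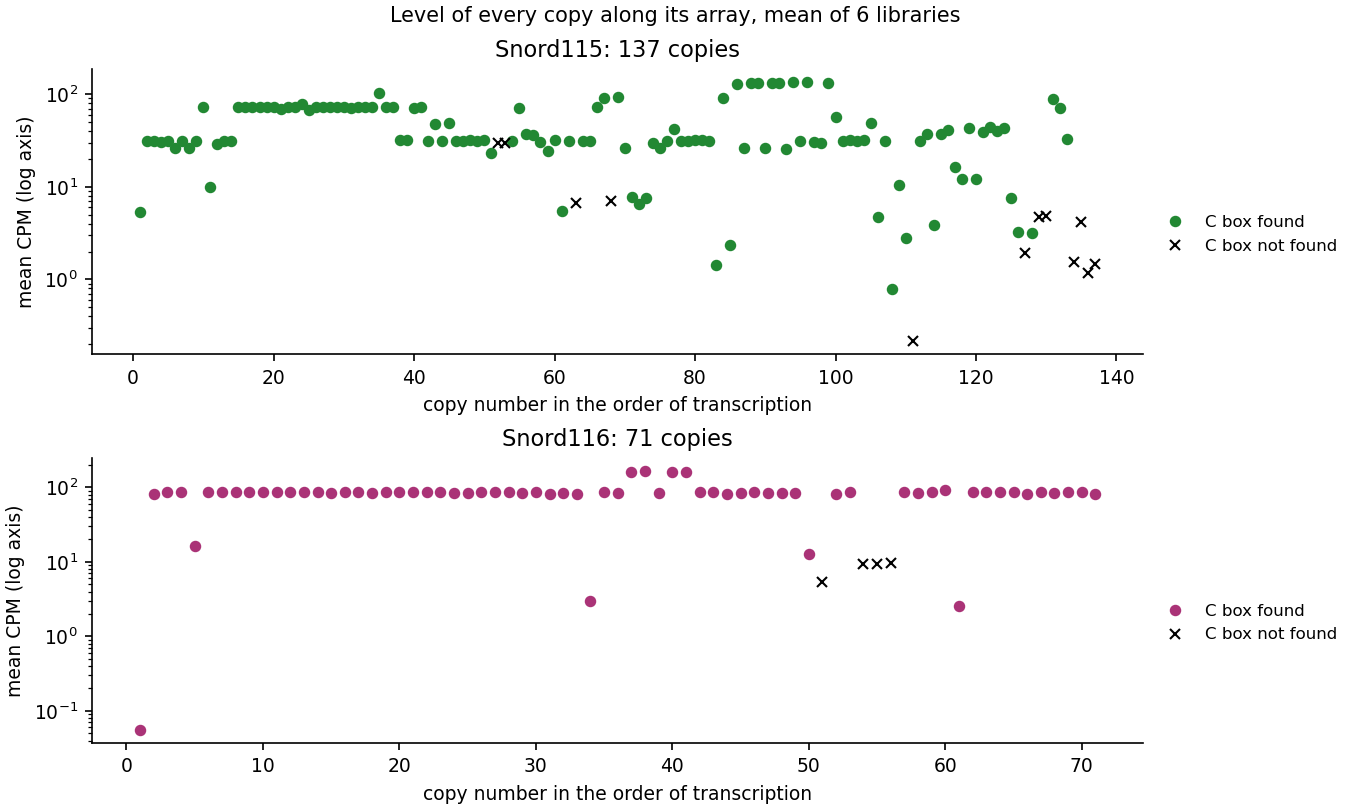
Mean level of every Snord115 row (above) and Snord116 row (below) over 6 libraries (y axis, CPM, log axis) against its copy number in the order of transcription (x axis), with crosses for rows in which the C box letters were not found. Snord115 falls into plateaus of rows with equal sequences. The 55 Snord116 rows of 94 bases whose first 50 bases match the most common sequence lie between 81.1 and 91.1 CPM. SNORD116.2, AC221015.33 and AC221015.19 lie in the same range.

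The level of a copy varied with where it differed from the most common sequence of its family. The first 50 bases were compared because 50 is the longest insert that the column header of 1 library names. Rows that match over these bases may share reads, so like levels among them are not separate measurements. In Snord116, 55 rows of 94 bases matched the most common sequence over these bases and had 81.1 to 91.1 CPM. Of these, 25 differed further on, for example T64G at 84.7 CPM and G90T at 83.0 CPM. AC221015.33 (92 bases) and AC221015.19 (93 bases) match over these bases too and were at 85.1 and 83.5 CPM. The 13 rows of 94 bases with a substitution in the first 50 bases ran from 2.56 to 166 CPM. C16G rows had 1.87 times the mean of the most common sequence, and T11C rows 0.109 times. G1A alone (SNORD116.2) was at 85.9 CPM, inside the range of the matching rows.

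Snord115 had the same layout with a wider spread. Of the rows of 79 bases, 41 matched the most common sequence over the first 50 bases. They had 23.4 to 48.5 CPM, a 2.07-fold range, and 8 of them differed further on. SNORD115.5, of 69 bases and so not among them, has the same first 50 bases and was at only 1.43 CPM. The 89 rows of 79 bases that differed in the first 50 bases had 0.215 to 135 CPM, a 625-fold range. Rows with a change at the same position differed widely: 3 A34C rows were at a mean of 91.4 CPM, and the A34G row AC169674.16 was at 4.72 CPM. A match over the first 50 bases did not always go with a like level. SNORD115.12 has the A34C change too and differs from the other A34C rows only past base 50 (T51A and C79A), but it was at 2.33 CPM. This is a description across rows that may share reads, and its cause was not tested.

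**Figure D3:**
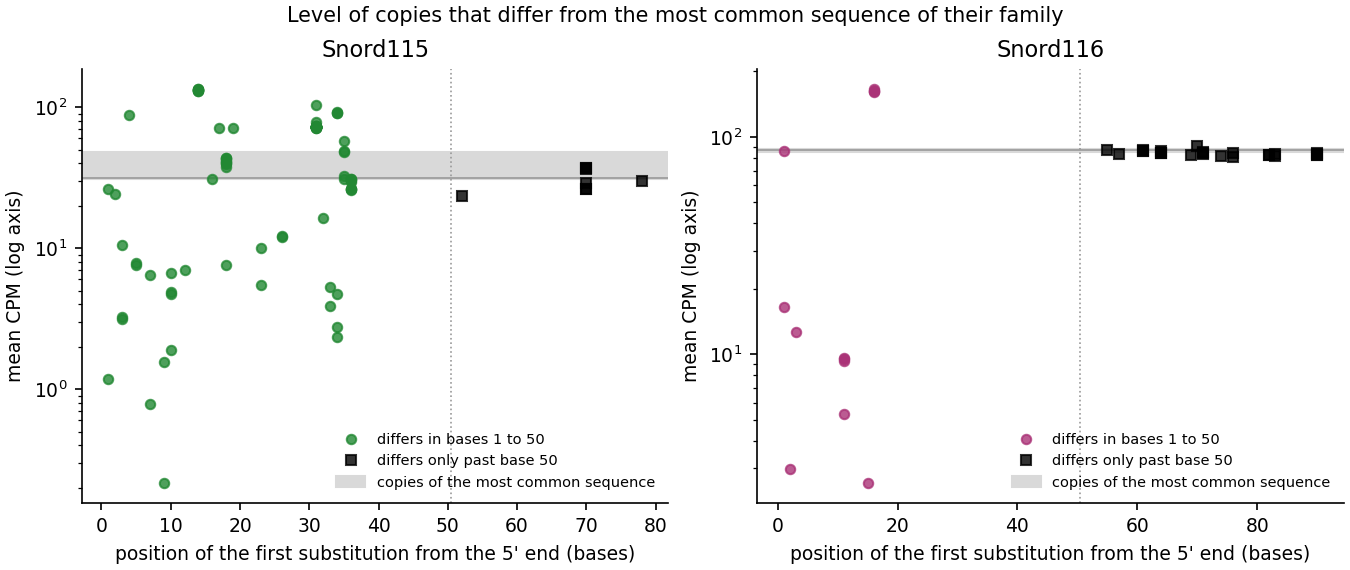
Mean level (y axis, CPM, log axis) of Snord115 rows (left) and Snord116 rows (right) that differ from the most common sequence of their family, against the position of the first substitution from the 5′ end (x axis, bases). Only rows of the same length as that sequence are shown. The grey band spans the copies of the most common sequence, the dotted line stands at 50 bases, and black squares (rows that differ only past it) lie at 23.4 to 36.9 CPM in Snord115 and 81.1 to 91.1 CPM in Snord116.

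Rows in which the C box letters were not found had low levels in most cases. In Snord116 they were the 3 T11C rows and AC221015.27 (T11C with G65C), at 5.33 to 9.58 CPM, beside a median of 86.3 CPM in the 67 rows with the box. In Snord115 the median was 4.43 CPM in 12 rows without the letters and 31.7 CPM in 125 rows with them. SNORD115.9 and SNORD115.10, each 78 bases long, were exceptions at 29.4 and 29.5 CPM. Low levels were not limited to rows without the letters. Of the tested rows under 20 CPM, the letters were missing in 4 of 8 in Snord116 and 9 of 28 in Snord115. AC221015.8, a Snord116 row that has the box, was at 2.56 CPM, below the T11C rows. No match says only that TGATGA is not in the first 20 bases.

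Of the 13 Rian rows, 5 held nearly all counts. AF357425 (chromosome 12, 109636012 to 109636084, plus strand) was the most abundant, at 845, 1071 and 832 CPM across the WT libraries and 822, 941 and 885 CPM across the Dicer1-ifKO libraries. WT replicate 2 was the highest library, and the genotypes overlapped. On the scale of CPM per kilobase, the 5 came in the order AF357425 (12322), SNORD113.13 (7529.6), AF357355 (5883), SNORD113.15 (5257) and SNORD113.1 (1879), as means over 6 libraries. SNORD113.13 was at 481, 613 and 553 CPM across the WT libraries and 534, 556 and 515 CPM across the Dicer1-ifKO libraries. AF357355 was at 370.2, 499 and 425 CPM across the WT libraries and 398, 424 and 425 CPM across the Dicer1-ifKO libraries. WT replicate 2 was highest for both, and the genotypes overlapped.

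SNORD113.15 was at 378, 455 and 383 CPM across the WT libraries and 397, 365 and 355 CPM across the Dicer1-ifKO libraries. SNORD113.1 was at 123, 158 and 134 CPM across the WT libraries and 138, 144 and 115 CPM across the Dicer1-ifKO libraries. AF357355 and SNORD113.15 are neighbours in the order of levels whose libraries overlapped. The other 8 rows had few counts or none. SNORD113.2 held 27, 29 and 25 counts across the WT libraries and 20, 22 and 18 across the Dicer1-ifKO libraries, and SNORD113.4 held 11, 7 and 8 counts across the WT libraries and 5, 12 and 12 across the Dicer1-ifKO libraries, and both have a C box and a D box. SNORD113.20 held 1 count in all. SNORD112.1, SNORD113.16, SNORD113.21, SNORD113.9 and SNORD113.6 held 0 counts in all 6 libraries, which allows a level of up to 0.0563 to 0.0722 CPM per library (3 counts, counting error only). The 4 of these with a sequence each lack at least 1 box.

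At the edge of the region, SNORD113.6 (start 109657125), the last row inside it, and SNORD113.10 (start 109673913), the first outside it, both held 0 counts. The row before SNORD113.6 is SNORD113.1 (start 109656345), an abundant row at a mean of 135 CPM. AF357428, the next outside, held 407, 376 and 432 counts across the WT libraries and 399, 479 and 448 across the Dicer1-ifKO libraries.

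No imprinted snoRNA row passed the test between Dicer1-ifKO and WT. The comparison asks whether these noncoding RNAs, which are known to be freed from introns by debranching and exonucleases, changed in hippocampus after Dicer1 was lost from excitatory neurons. Of 215 tested members, 0 were called by edgeR's quasi-likelihood test at an adjusted p of 0.05, while over all 6539 tested rows 53 were called (0.811%; 52 lower, 0.795%, and 1 higher, 0.0153%). At an unadjusted p under 0.05 there were 0 members by edgeR and 0 by DESeq2, beside 7.81% of all tested rows by edgeR. DESeq2 called 0 members and 63 rows in all (0.963%). The 8 members not tested, with too few counts, were 6 Rian rows, SNORD116.1 and AC169674.25. In bulk tissue, fewer cells of a type and less RNA per cell cannot be told apart.

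The intervals show which sizes of change these libraries leave room for. The median half-width of the 95% interval of the log2 change was 0.31 for Snord115, 0.34 for Snord116 and 0.31 for the tested Rian rows. The median log2 change was 0.04 over 136 Snord115 rows, -0.16 over 70 Snord116 rows and -0.05 over 7 Rian rows. Over all tested rows the median was -0.05, and over 259 other snoRNA rows it was -0.04. The log2 change was below 0 in 44 of 136 Snord115 rows, in all 70 tested Snord116 rows and in 6 of 7 Rian rows, beside 56.8% of all tested rows. On library totals alone, without TMM scaling, the medians were 0.09, -0.11 and 0.0017, with 3 of 7 Rian rows below 0, so the direction of the Rian rows depends on the scaling. Rows of a family may share reads, so these are not separate observations.

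**Figure D4:**
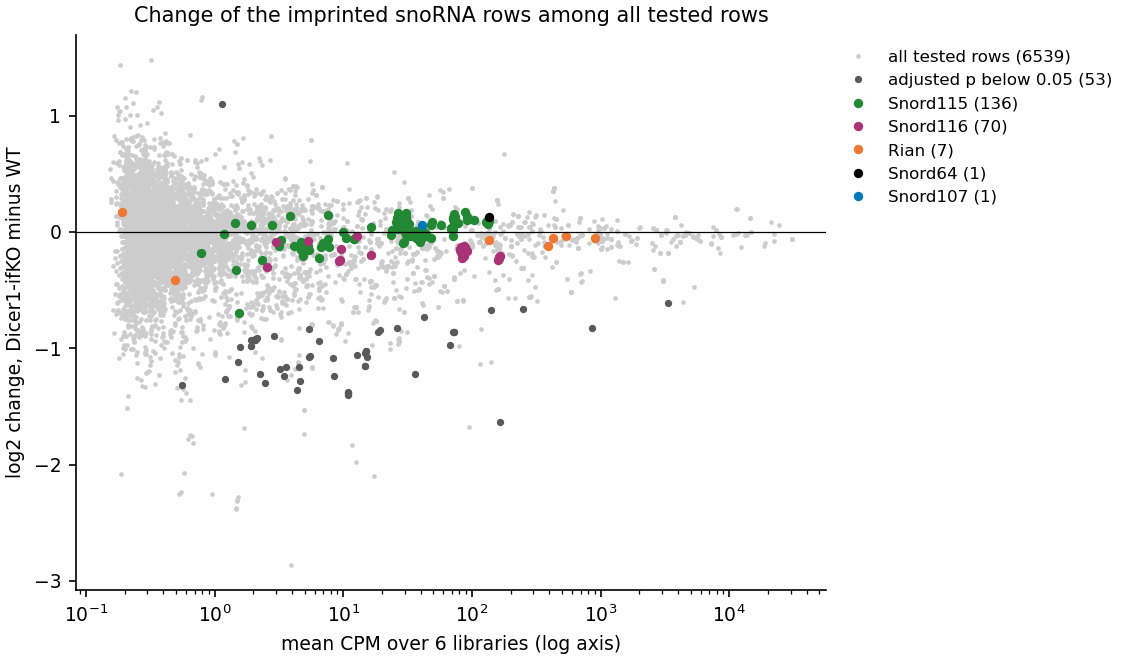
Log2 change from WT to Dicer1-ifKO (y axis) against the mean level over 6 libraries (x axis, CPM, log axis) for all 6539 tested rows, with the 53 called rows in dark grey and the tested members in colour. Members run from -0.69 (AC167971.1, which is at -0.20 without WT replicate 1) to 0.17, and no member is among the called rows.

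None of the most abundant rows passed the test. AC169674.23 (GENCODE Gm25120), the highest Snord115 row, was at 124, 135 and 132 CPM across the WT libraries and 139, 138 and 139.8 CPM across the Dicer1-ifKO libraries. The Dicer1-ifKO libraries were all above the WT libraries, but the row was not called, with log2 change 0.09 ± 0.13 (SE; 95% interval -0.19 to 0.38; edgeR adjusted p = 0.97). The other 4 of the top 5, AC169674.24, AC169674.15, AC169674.29 and AC169674.45, carry the C14A G35A sequence and had log2 changes of 0.07 to 0.10. Of all 215 tested members, 15 lay wholly above WT (6.98%), beside 3.73% of all tested rows, and 5 wholly below (2.33%), beside 9.27%. Of the 136 Snord115 rows, 15 lay wholly above WT (11.03%) and 2 wholly below (1.47%). These rows may share reads and are not separate observations. Summed over the family the libraries overlapped, at 5780.0 ± 193 CPM (WT) against 6056 ± 196 CPM (Dicer1-ifKO; mean ± SD, n = 3 each), a log2 ratio of 0.07, and on library totals alone, without TMM scaling, it was 0.12.

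AC221015.5 (Gm22776), the highest Snord116 row, with C16G and G70A, was at 162, 202 and 169 CPM across the WT libraries and 167, 174 and 122 CPM across the Dicer1-ifKO libraries. Dicer1-ifKO replicate 3 was the lowest library and the others overlapped, with log2 change -0.21 ± 0.17 (SE; 95% interval -0.56 to 0.15; edgeR adjusted p = 0.92). AC221015.43, AC221015.7 and AC221015.26 carry C16G and had log2 changes of -0.24 to -0.22. AC221015.25, with G70A, had -0.17. Among Rian rows, AF357425 had log2 change -0.05 ± 0.14 (SE; 95% interval -0.35 to 0.25; edgeR adjusted p = 0.99). The log2 changes of the other 4 abundant Rian rows ran from -0.12 (SNORD113.15) to -0.04 (SNORD113.13). Those of AF357425, SNORD113.13 and AF357355 were at or above 0 on library totals alone, so no direction is given for them. Snord64 was at 129 ± 8.80 CPM (WT) against 141 ± 20.5 CPM (Dicer1-ifKO; mean ± SD, n = 3 each), with log2 change 0.13 ± 0.15 (SE; 95% interval -0.20 to 0.45; edgeR adjusted p = 0.94). Snord107 was at 40.1 ± 5.24 CPM (WT) against 41.7 ± 4.31 CPM (Dicer1-ifKO; mean ± SD, n = 3 each), with log2 change 0.06 ± 0.16 (SE; 95% interval -0.29 to 0.40; edgeR adjusted p = 0.99).

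The main sequences were also summed over their rows, which joins identical copies. Snord115 G31C summed to 1529.8, 1668 and 1598 CPM across the WT libraries and 1647, 1837 and 1708 CPM across the Dicer1-ifKO libraries. The most common Snord115 sequence summed to 1042, 1079.8 and 1011 CPM across the WT libraries and 1051, 1111 and 1037 CPM across the Dicer1-ifKO libraries. Snord115 C14A G35A summed to 738, 801 and 771 CPM across the WT libraries and 810.3, 823 and 822 CPM across the Dicer1-ifKO libraries. The genotypes overlapped in G31C and in the most common sequence, and in C14A G35A all Dicer1-ifKO libraries were above all WT libraries, although none of its rows was called. The most common Snord116 sequence summed to 2619, 2959 and 2655 CPM across the WT libraries and 2611, 2757 and 2034 CPM across the Dicer1-ifKO libraries. Snord116 C16G summed to 479, 587 and 509 CPM across the WT libraries and 489, 501 and 355 CPM across the Dicer1-ifKO libraries, and T11C to 33.5, 30.3 and 27.5 CPM across the WT libraries and 27.8, 28.9 and 22.2 CPM across the Dicer1-ifKO libraries. In all 3 Snord116 sequences Dicer1-ifKO replicate 3 was the lowest library.

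Among tested members that averaged 50 counts per library or more, the lowest log2 changes were those of AC167971.1 and SNORD115.4 of Snord115 and AC221015.8 of Snord116. AC167971.1 (chromosome 7, 59347681 to 59347759, minus strand) held 149, 57 and 71 counts across the WT libraries and 48, 68 and 53 across the Dicer1-ifKO libraries. WT replicate 1 had more than any other library, and the other 5 lay between 48 and 71. The fit gave log2 change -0.69 ± 0.32 (SE; 95% interval -1.42 to 0.04; edgeR adjusted p = 0.68), and with 1 library left out the log2 change ran from -0.92 to -0.20, its smallest size being without WT replicate 1. SNORD115.4 held 127, 55 and 55 counts across the WT libraries and 54, 78 and 55 across the Dicer1-ifKO libraries, again with WT replicate 1 alone above the rest. It had log2 change -0.32 ± 0.31 (SE; 95% interval -1.02 to 0.37; edgeR adjusted p = 0.93), and without WT replicate 1 the log2 change was 0.17. Neither row has the C box letters.

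AC221015.8, a Snord116 row that differs from the most common sequence by T15A, G65T and A79T, held 129, 150 and 126 counts across the WT libraries and 97, 132 and 96 across the Dicer1-ifKO libraries. It had log2 change -0.30 ± 0.18 (SE; 95% interval -0.69 to 0.08; edgeR adjusted p = 0.80). The highest log2 changes were those of the Snord115 rows AC169674.9 (0.17), AC171272.19 (0.17) and AC169674.14 (0.16). With 1 library left out these ran from 0.07 to 0.30 for AC169674.9 (lowest without Dicer1-ifKO replicate 2, highest without WT replicate 1), 0.07 to 0.25 for AC171272.19 (without WT replicate 1 and WT replicate 3) and 0.13 to 0.25 for AC169674.14 (the same). AC169674.9 was at 97.3, 69.9 and 81.8 CPM across the WT libraries and 82.9, 109 and 88.5 CPM across the Dicer1-ifKO libraries. Its genotypes overlapped, with log2 change 0.17 ± 0.17 (SE; 95% interval -0.19 to 0.53; edgeR adjusted p = 0.93).

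WT replicate 1 stood apart for Snord115 rows of low level. Of the 28 tested Snord115 rows under 20 CPM, 20 had their highest value there, while of the 108 rows at 20 CPM or more 4 did. The rows under 20 CPM summed to 193, 142 and 148 CPM across the WT libraries and 144, 168 and 149 CPM across the Dicer1-ifKO libraries. They held 2.67% of Snord115 counts, and 9 of them lack the C box letters, beside 2 of the 108 others. In WT replicate 1 their median deviation from the mean of the WT libraries was 0.31 on the log2 scale, and that of the rows at 20 CPM or more was -0.04. The cut at 20 CPM was chosen after the values were seen.

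Dicer1-ifKO replicate 3 stood apart for Snord116. All 70 tested Snord116 rows had their lowest value in that library, and 63 of them lay more than 0.4 (log2) below the mean of the WT libraries. The median deviation there was -0.44 for Snord116, 0.02 for Snord115 and -0.08 for the Rian rows. With this library, summed Snord116 was 6009 ± 451 CPM (WT) against 5361 ± 853 CPM (Dicer1-ifKO; mean ± SD, n = 3 each), a log2 ratio of -0.16. Without it, on the same scale, the mean of the other Dicer1-ifKO libraries was 5846 CPM and the log2 ratio -0.04. Refitted without it, the median log2 change of the 70 rows was -0.04, and 66 rows were below 0. The low share of Snord116 was also seen against the other members, since it made up 34.2% of member counts in that library and 40.3% to 42.1% in the other 5.

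Snord116 was not alone in being low in that library. Of 120 other snoRNA rows with at least 20 CPM, 3 lay more than 0.4 (log2) below the WT mean there, and the median of all 120 was -0.01. The 3 were Snord83b, SNORD16.1 and Snord13, named after their values were seen. Snord83b, a C/D snoRNA of 94 bases outside the imprinted regions, held 263214, 268872 and 224727 counts across the WT libraries and 239709, 220767 and 25144 across the Dicer1-ifKO libraries. It was lower by 3.30 on the log2 scale in Dicer1-ifKO replicate 3 than in WT, and the other 5 libraries lay between 220767 and 268872 counts. SNORD16.1 held 2014, 924 and 724 counts across the WT libraries and 3309, 912 and 252 across the Dicer1-ifKO libraries, so it varied widely among the other 5 libraries too. Snord13 held 1444, 1527 and 1035 counts across the WT libraries and 1139, 1114 and 644 across the Dicer1-ifKO libraries. SNORD16.1 is 99 bases long and Snord13 104, and all 3 were among the 17 rows of that set with 90 bases or more, whose median deviation was -0.02. The part of length or of this library in the Snord116 values was not tested.

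**Figure D5:**
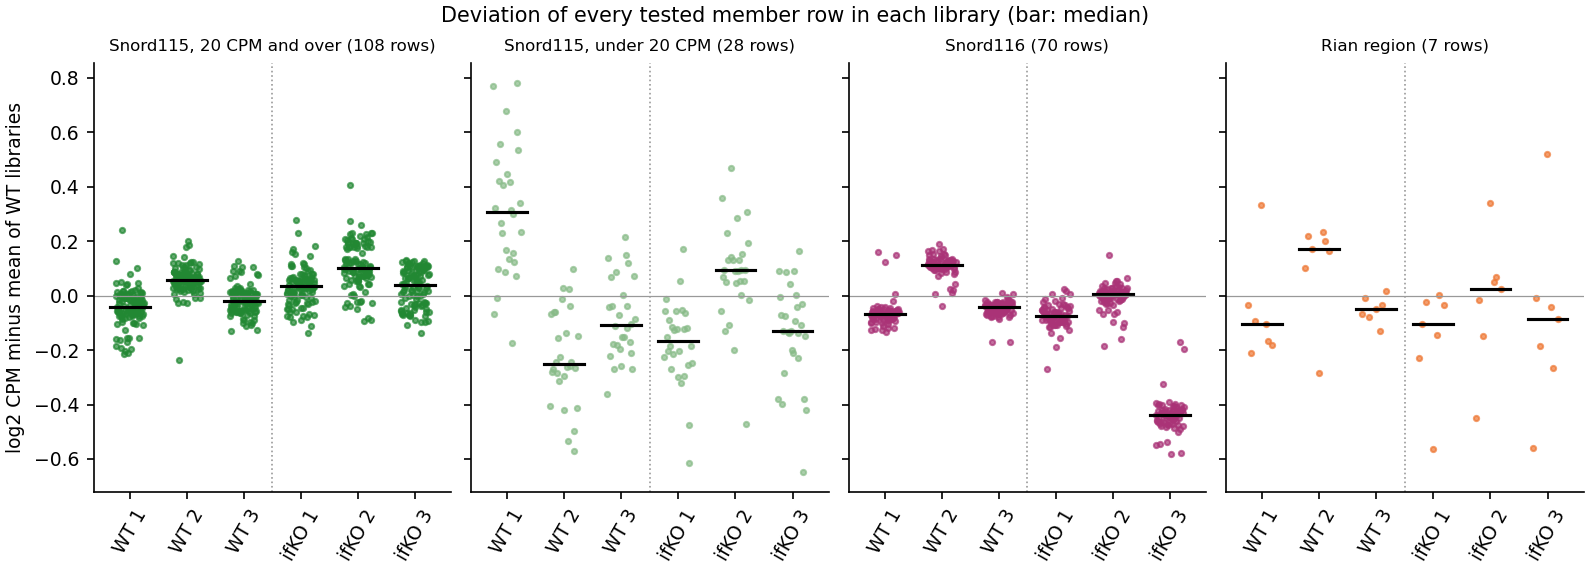
Log2 level of every tested row minus its mean over the WT libraries (y axis) in each of the 6 libraries (x axis; ifKO is Dicer1-ifKO), for Snord115 rows at 20 CPM and over, Snord115 rows under 20 CPM, Snord116 rows and Rian rows. Black bars are medians, which stand at 0.31 for low Snord115 rows in WT replicate 1 and -0.44 for Snord116 rows in Dicer1-ifKO replicate 3.

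Other genes of the pathway gave little signal in these libraries. Of 21 names listed, 16 had a row, 7 were tested and 0 passed the test in either direction. Host transcripts of the snoRNAs (Snhg14, Ipw, Rian, Mirg) had no row by these names and are not analysed here. Nop56 and Nop58, which encode core C/D snoRNP proteins, had log2 changes of 0.02 ± 0.14 and -0.11 ± 0.14 (SE; edgeR adjusted p = 0.99 and 0.94), but nearly all of their counts lay in short RNA rows inside the genes. Fbl, which encodes the methyltransferase fibrillarin, held 4 counts in all. Snrpn, the protein-coding gene at the start of the paternal transcript, held 21, 17 and 18 counts across the WT libraries and 15, 16 and 19 across the Dicer1-ifKO libraries, and Ube3a, which the same transcript runs antisense to in neurons, held 50, 35 and 20 counts across the WT libraries and 33, 43 and 38 across the Dicer1-ifKO libraries. Magel2, Mkrn3 and Peg12 were at 0.

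In the maternal region Meg3, a long noncoding RNA upstream of Rian, held 323, 309 and 293 counts across the WT libraries and 196, 191 and 240 across the Dicer1-ifKO libraries. Its libraries did not overlap, but it was not called (log2 change -0.53 ± 0.18 SE, edgeR adjusted p = 0.31), and 60.5% of its counts lay in short RNA rows. The Rtl1 span, which holds antisense miRNAs, was at 6185 ± 451 CPM (WT) against 4446 ± 161 CPM (Dicer1-ifKO; mean ± SD, n = 3 each), with no overlap, a log2 change of -0.48 ± 0.12 (SE) and an edgeR adjusted p of 0.10. Its counts lay wholly in short RNA rows. The abundant Rian snoRNAs, given above, overlapped between genotypes. Whether Rtl1 or Meg3 and the Rian snoRNAs differ in their change was not tested. Htr2c, with 93.4% of its counts in short RNA rows, had a log2 change of -0.26 ± 0.17 (SE; edgeR adjusted p = 0.82).

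The makeup of the tissue was checked with miRNAs known from single cell types, most of which need Dicer1 themselves. The erythrocyte miRNA miR-451a does not. Neuronal miRNAs (5 of 5 found) summed to 3111 to 4005 CPM (WT) and 2602 to 3282 CPM (Dicer1-ifKO). Oligodendrocyte miRNAs (3 of 3) summed to 200.2 to 319.9 CPM (WT) and 239.6 to 329.6 CPM (Dicer1-ifKO), microglia and leukocyte miRNAs (4 of 4) to 141 to 176 CPM (WT) and 177 to 198 CPM (Dicer1-ifKO), vessel miRNAs (4 of 4) to 358 to 588 CPM (WT) and 454 to 616 CPM (Dicer1-ifKO) and erythrocyte miRNAs (2 of 2) to 109 to 119.6 CPM (WT) and 96.7 to 115.6 CPM (Dicer1-ifKO). Choroid plexus miRNAs (3 of 3) summed to 319 to 342 CPM (WT) and 217 to 236 CPM (Dicer1-ifKO), with no overlap, and the microglia and leukocyte sums did not overlap either. None of these miRNA rows passed the test. Their part in the snoRNA values was not tested. The Dicer1 span itself held 32 to 47 counts per library, which is too few to check the genotype labels.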

How the data were processed

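Small RNA was sequenced by the submitters from 3 WT and 3 Dicer1-ifKO pools, grouped by sample title. The deposited tables hold whole-number read counts per feature, unscaled by the authors, and a normalized column not used here. As tools and builds, the submitters' processing notes list BWA, SAMtools 0.1.18, CASAVA 1.8.2, DESeq2 and GRCm38 (mm10), with no roles. The sources used here do not say which counter was used, its strand setting or how reads with several alignments were treated. The header of WT replicate 2 names lane 4 and inserts of 18 to 50.

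Rows were matched to GENCODE M21 by exact coordinates, and Snord115 was separated from Snord116 at the gap between 59619095 and 59673461 on chromosome 7. 43307 rows that repeat another row of the same gene, most of them at 0, were dropped. Feature sums were 55101387 to 77428956 per library before these rows were dropped and 39391707 to 54628963 after. CPM rest on the sums after the drop. A read can be counted in several features, so these sums are not read depth. edgeR 4.0.16 in R 4.3.3 was run with filterByExpr (minimum count 10), TMM and the robust quasi-likelihood test, two-sided, with Benjamini-Hochberg adjustment over 6539 rows and a threshold of 0.05. The SE was derived from the F statistic. DESeq2 1.42.0, other scalings and filters, the replicate block, families summed and leaving out libraries were alternatives. On simulated counts of 6539 rows, the test recovered 48% of changes of log2 size 1 and 94% of size 2, with 8 false calls. The changed rows were drawn from all tested rows with a mean of at least 50 counts, so these shares are not specific to the members. Libraries of a genotype differed by more than counting noise over the members (chi-square per degree of freedom 7.02 to 29.0). Named members were the 5 most abundant rows of Snord115, Snord116 and Rian, Snord64, and the 3 lowest and 3 highest log2 changes among tested rows with a mean of at least 50 counts. The members and lists were chosen with earlier results of these data known.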

Additional observations from a re-analysis of the deposited data

How the results depend on the processing

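No member was called under any alternative run: 0 higher and 0 lower with every scaling and filter, DESeq2, families summed, and each library left out. The deviations of same-numbered libraries from their genotype means were weakly correlated (-0.18, 0.075 and -0.16). With 3 libraries per genotype this cannot exclude a pairing, and the main fit used none. With the replicate block 0 members were called and the median log2 change of members was -0.02; over all rows the count of calls went from 53 to 6. With 1 library left out in turn, the log2 ratio of summed CPM ran from 0.04 to 0.11 for Snord115, -0.23 to -0.04 for Snord116, -0.14 to 0.06 for Rian, 0.0095 to 0.24 for Snord64 and -0.04 to 0.17 for Snord107. The Snord116 value nearest 0 came without Dicer1-ifKO replicate 3. On library totals alone the Snord115 ratio was 0.12, more than the spread between libraries from its main value. Over 330 values of 22 named members, 15 changed sign, none of them called. These were, on library totals, AF357425 0.0017, SNORD113.13 0.021, AF357355 0.0066; with relative log expression size factors, SNORD113.13 0.0034; with at least 50 counts in 3 libraries, SNORD113.13 0.016, AF357355 0.00025; with DESeq2, SNORD113.13 0.0034. With 1 library left out in turn, the log2 change ran from -0.157 to 0.0747 for AF357355, -0.112 to 0.0865 for AF357425, -0.15 to 0.0543 for SNORD113.1, -0.128 to 0.0593 for SNORD113.13, -0.502 to 0.169 for SNORD115.4. With both WT replicate 1 and Dicer1-ifKO replicate 3 left out, an alternative added after seeing the data, SNORD115.4 was at 0.26. The cause was not tested. Pools of 3 mice, 3 libraries per genotype and copies of identical sequence limit what could be seen.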

Other observations

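Past the edge of the Rian region, 10 more short rows on chromosome 12 carry SNORD113 or related names, of which 7 were tested and 0 were called by edgeR (0 at an unadjusted p under 0.05). SNORD113.12 (start 109684962) was the most abundant, at 3810, 5313 and 4135 counts across the WT libraries and 3510, 4539 and 3903 across the Dicer1-ifKO libraries, and its genotypes overlapped. SNORD113.7 held 395, 364 and 327 counts across the WT libraries and 359, 276 and 105 across the Dicer1-ifKO libraries, with Dicer1-ifKO replicate 3 below the other 5 libraries (log2 change -0.50 ± 0.46 SE, edgeR adjusted p = 0.93). It is 75 bases long, shorter than Snord116.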
